A study of Danio rerio with 12 samples.

Results

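Messenger RNA of whole zebrafish larvae given bepridil at 250 ng/mL was compared with that of larvae at 0 ng/mL, with 3 libraries a side. These 6 libraries are the ones the labels assign to the lowest dose and to the control of a series of 12, which also holds 3 libraries each at 750 and 1295 ng/mL. All 6 came from larvae of the AB strain at 120 hours post fertilization, with RNA of 15 larvae in each library and the tissue labelled embryo, and the groups differ in the labels only by dose. The labels do not say when exposure began, whether the controls received a vehicle, or whether the replicates are from different clutches. The p-values below therefore cover the spread among these samples alone, and that spread may be technical. Of 25099 genes listed in the deposited counts, 21581 had enough counts to be tested.

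Bepridil is a calcium channel blocker that was used against angina. It blocks L-type and T-type channels, and it also acts on sodium and potassium channels of heart muscle and binds calmodulin. At this age the yolk of a zebrafish larva is nearly used up, the gut tube is open, and the exocrine pancreas, liver and intestine are taking over digestion. Those organs make their own enzymes and carriers at high levels, so their messenger RNA can be followed in a whole animal, although in such bulk samples fewer cells of a type and less RNA per cell cannot be told apart.

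Total counts were 15571556 to 16777922 in the 6 libraries and 15571556 to 18284169 in the series. Levels are given as CPM, the usual depth-scaled counts with normalization factors (TMM), and are not divided by gene length, so that they compare samples and not genes. Each test was edgeR's quasi-likelihood test with all 12 libraries in 1 fit, and a gene passed at a Benjamini-Hochberg adjusted p under 0.05 over all tested genes. Log2 fold changes are given ± SE. Of 44 tested marker genes of 15 larval tissues, 42 reached 1 CPM in all 6 libraries, and each tissue had at least 1 such marker. On the first principal component of the 6 libraries, which held 50.9% of the variance, the 250 ng/mL libraries lay at -22.05, -24.84 and -38.00 and the controls at 40.59, 20.22 and 24.08.

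At 250 ng/mL, 2269 genes passed, which is 10.5% of those tested. Of these, 1302 were higher than in controls (6.03% of tested genes) and 967 were lower (4.48%). The increases were the larger changes. Their median was 1.72-fold against 1.37-fold for the decreases, and 409 genes rose at least 2-fold while 41 fell at least 2-fold. The mix differed with abundance: among genes averaging 1 to 5 CPM, 275 rose and 39 fell, and among genes at 100 CPM or more, 116 rose and 202 fell. The share of calls that were higher was 57.4% with these scaling factors, 48.7% of 2394 calls with RLE scaling, 45.8% of 2653 calls with DESeq2 and 45.1% of 3051 calls without 750 ng/mL replicate 3. Without 0 ng/mL replicate 1 the count was 1105 genes, and without 250 ng/mL replicate 3 it was 1069. The lowest of the 3 treated libraries was replicate 3 for 759 of the 967 genes that fell, and the highest of the 3 controls was replicate 2 for 758 of the 1302 genes that rose. In 32.6% of tested genes the 3 treated libraries did not overlap the 3 controls.

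**Figure D1:**
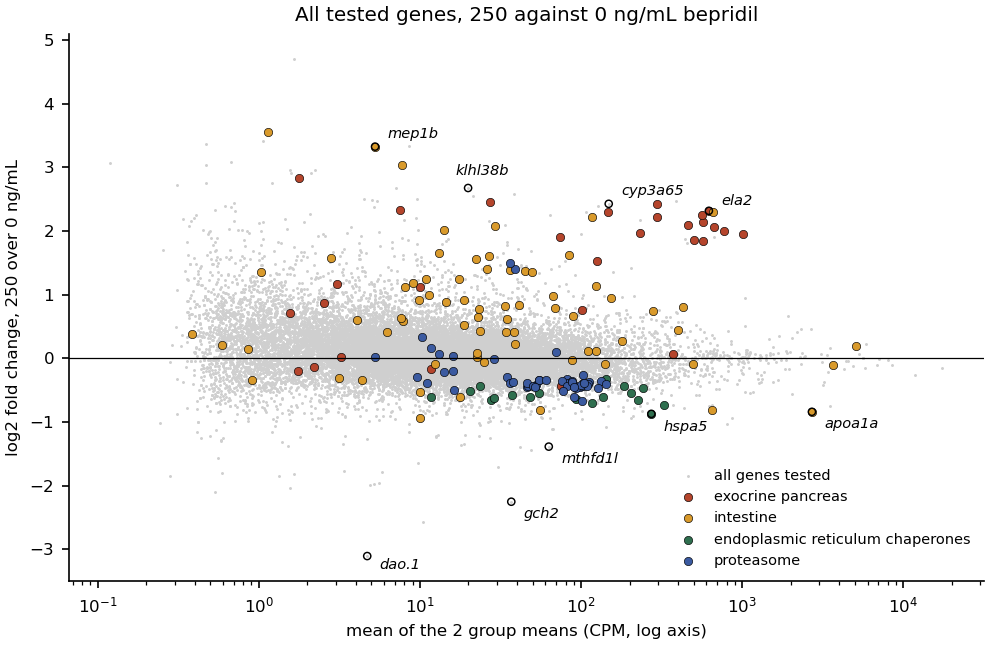
Log2 fold change of each tested gene at 250 over 0 ng/mL (vertical axis) against the mean of its group means in CPM (horizontal log axis), with 4 groups of genes in color and 9 named genes circled. Digestive enzymes of the pancreas lie near 2 at the abundant end, while endoplasmic reticulum chaperones and most proteasome genes lie below 0.

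Ranked by the difference in CPM, which favours abundant genes, the largest gains were mostly in digestive enzymes. Elastase, trypsin, chymotrypsin and carboxypeptidase genes, an intestinal chitinase gene and the unnamed gene zgc:92041 made up 7 of the 8 largest gains in CPM. Those 7 passed whichever of the compared libraries or 750 ng/mL replicate 3 was left out. Of the 8 largest losses in CPM, 5 passed with each of the same libraries left out. They were krtt1c19e, a skin keratin, the lipoprotein genes apoa1a and apoa2, the methyl transfer enzyme bhmt and the matrix gene postnb. Keratin krtt1c19e had 2826, 2667 and 2319.6 CPM at 250 ng/mL, against 4290.1, 4048 and 4743 CPM in controls. The groups did not overlap, and the gene fell (log2 fold change -0.74 ± 0.13, adjusted p = 0.00228). Skin genes did not fall as a group. Of 37 tested keratin and junction genes of the epidermis, 5 rose and 2 fell (median log2 fold change -0.02). The number that rose was 2 with 0 ng/mL replicate 1, 0 ng/mL replicate 3 or 250 ng/mL replicate 2 left out. The other 4 of the 16 genes lost their calls without single libraries and are not described.

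Gene lists for tissues and pathways were read by their counts, beside the shares of all genes above and the median of all genes, a log2 fold change of 0.04. The lists held 2080 places for 2029 different genes. Shared genes, among them tat, ddit4 and lepb, count in each list that holds them, so the lists are not independent. Lists and members were also chosen with earlier results of these data known. The ranking below therefore describes the lists and does not test them. The exocrine pancreas, the glucocorticoid axis, the intestine, muscle atrophy and cytochrome P450 had the highest shares of members that rose among lists of 10 or more tested genes. The proteasome and endoplasmic reticulum folding had the highest shares that fell in the same lists, followed by one-carbon and serine metabolism, the erythrocyte, xanthophore pigment and the cell cycle.

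**Figure D2:**
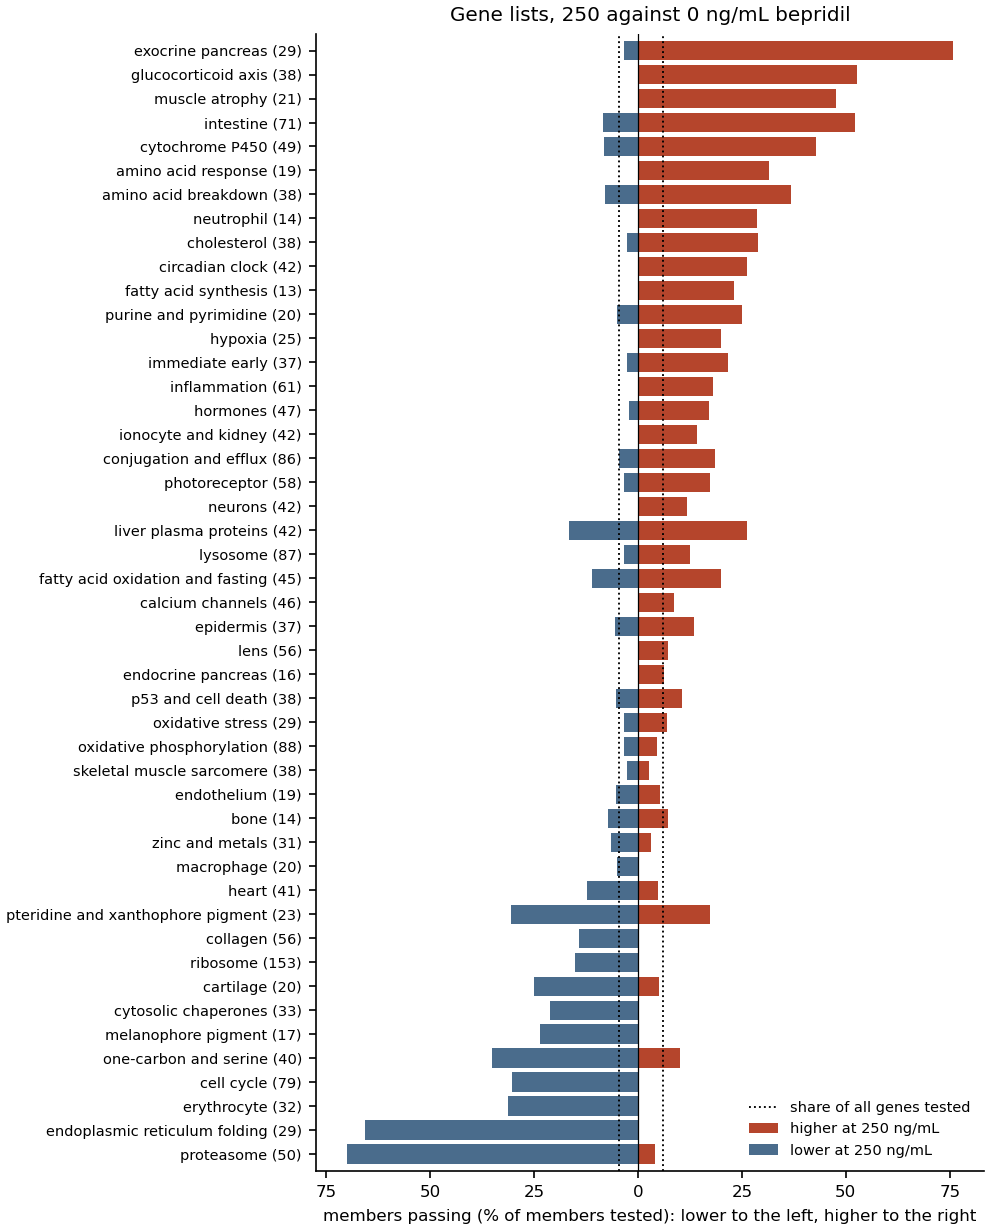
Share of tested members that passed in each gene list with 10 or more tested members, higher at 250 ng/mL to the right and lower to the left, in percent, with the number tested in brackets. The dotted lines mark the shares of all genes, 6.03% higher and 4.48% lower. Exocrine pancreas leads on one side and the proteasome on the other. The lists were chosen with earlier results of these data known.

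The exocrine pancreas secretes the proteases, lipases and amylase that digest food in the gut lumen. Of 29 tested genes of this tissue, 22 rose and 1 fell, with a median log2 fold change of 1.90. Every one of the 8 serine protease genes rose. The elastase gene ela2 had 786, 1271 and 1045 CPM at 250 ng/mL, against 129, 316 and 178 CPM in controls (log2 fold change 2.32 ± 0.36, adjusted p = 0.00101). Trypsin, try, had 981, 1472 and 1239.5 CPM against 228, 425 and 266 CPM in controls (log2 fold change 2.01 ± 0.27, adjusted p = 0.000343). Chymotrypsin, ctrb1, had 1329, 1958 and 1567 CPM against 338, 551 and 359.8 CPM (log2 fold change 1.96 ± 0.22, adjusted p = 0.000106). In these 3 genes every treated library was above every control, and replicate 2 was the highest library of both groups. The other serine proteases ctrl, ela2l, ela3l, prss59.1 and prss59.2 rose by 1.85 to 2.25 on the log2 scale. Several of these genes are close paralogs, so reads could be split between them in the authors' counting. Summed over the 8 genes, which limits that effect, the level was 6293, 9517 and 7824 CPM at 250 ng/mL and 1332, 2634 and 1638 CPM in controls, again without overlap.

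**Figure D3:**
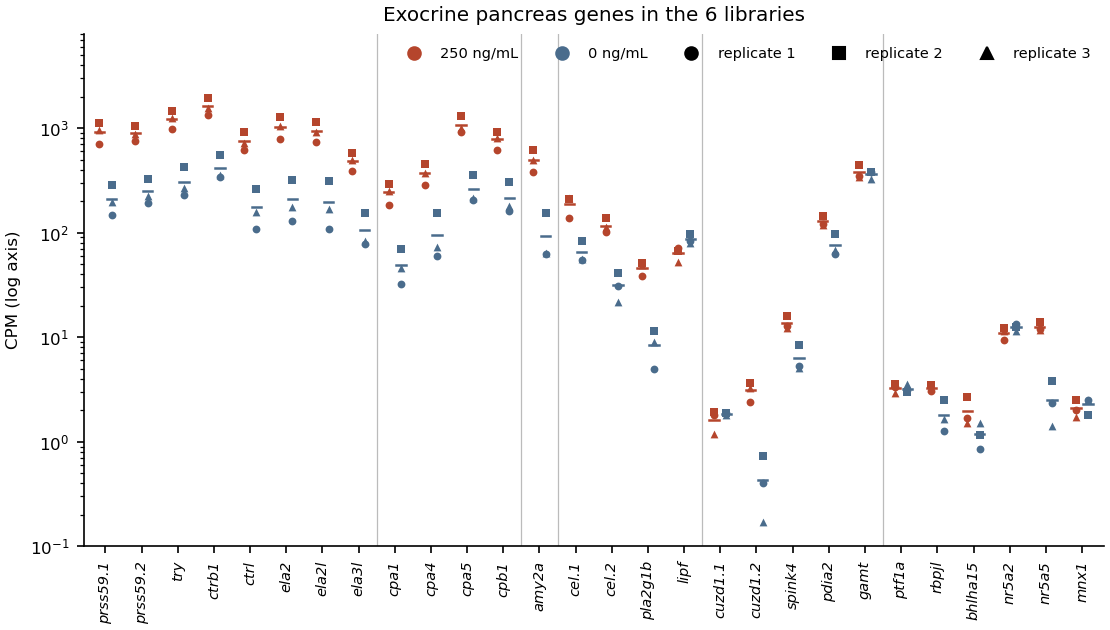
CPM on a log axis of exocrine pancreas genes in the 3 libraries at 250 ng/mL (left of each pair) and the 3 at 0 ng/mL (right), with the group mean as a line. The digestive enzyme genes drawn separate between the groups, while 6 genes, 4 of them transcription factors, overlap, and lipf is lower at 250 ng/mL.

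Carboxypeptidases trim the ends of peptides after the serine proteases have cut them. The carboxypeptidase gene cpa1 had 186, 293 and 251 CPM at 250 ng/mL and 32.6, 69.7 and 46 CPM in controls (log2 fold change 2.3 ± 0.28, adjusted p = 0.000203), and cpa5, cpa4 and cpb1 rose by 2.06, 1.96 and 1.86. Pancreatic amylase, amy2a, had 381, 624 and 493 CPM at 250 ng/mL and 62, 154 and 64.1 CPM in controls (log2 fold change 2.42 ± 0.35, adjusted p = 0.000619). Among the lipases, the pancreatic phospholipase gene pla2g1b had 38.9, 51.1 and 48.8 CPM against 4.91, 11.3 and 9.01 CPM (log2 fold change 2.46 ± 0.34, adjusted p = 0.000411). The bile salt dependent lipases cel.1 and cel.2 rose by 1.53 and 1.9. A gastric-type lipase gene, lipf, was the exception, with 71, 67.4 and 53 CPM at 250 ng/mL and 83.2, 96.6 and 80.3 CPM in controls, and it fell by 0.44 (adjusted p = 0.0194). This did not hold without 0 ng/mL replicate 2 (0.0672) or 250 ng/mL replicate 3 (0.0775), where the adjusted p stands in brackets.

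Among the transcription factor genes of the pancreas list, 2 rose and 0 fell, with a median log2 fold change of 0.37. Levels in whole larvae do not show which tissue carried these transcripts. Of 6 transcription factors, nr5a5, an Nr5a family nuclear receptor, rose, with 12.1, 13.9 and 11.8 CPM at 250 ng/mL and 2.34, 3.82 and 1.41 CPM in controls (log2 fold change 2.33 ± 0.26, adjusted p = 9.85e-05). Replicates overlapped for ptf1a, which sets the pancreatic lineage, at 3.35, 3.58 and 2.91 CPM against 3.14, 2.97 and 3.55 CPM (log2 fold change 0.02, adjusted p = 0.953). Values for nr5a2 and bhlha15 were -0.18 (adjusted p = 0.452) and 0.72 (adjusted p = 0.225). The factor rbpjl, which acts with Ptf1a on enzyme genes, passed at 0.87 (adjusted p = 0.0474), and this did not hold without 0 ng/mL replicate 1 (0.19), 0 ng/mL replicate 3 (0.124), 250 ng/mL replicate 1 (0.0798), 250 ng/mL replicate 2 (0.118) or 250 ng/mL replicate 3 (0.123). Nor did it hold with RLE scaling (0.0502), total counts only (0.05025), DESeq2 (0.0606) or only the compared groups (0.0511), or without the 1295 ng/mL group (0.0732). Of 8 islet and gut hormone genes, gcga (glucagon) passed at 0.82 (adjusted p = 0.0272), which did not hold without 0 ng/mL replicate 1 (0.0798), 0 ng/mL replicate 2 (0.0664), 0 ng/mL replicate 3 (0.0646), 250 ng/mL replicate 1 (0.081) or 250 ng/mL replicate 3 (0.14). Insulin, ins, had 18.7, 23.1 and 17.7 CPM at 250 ng/mL and 18.6, 20.9 and 15.7 CPM in controls (log2 fold change 0.11, adjusted p = 0.736). Somatostatin genes had log2 fold changes of 0.13 (sst1.2), 0.28 (sst2) and 0.3 (sst1.1), and none of the 3 passed.

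Absorptive intestine was the next group. Enterocytes carry hydrolases and nutrient transporters on a brush border, take up lipid and export it in apolipoprotein particles. Of 71 tested intestinal genes, 37 rose and 6 fell (median 0.65). Among the 13 brush border hydrolases, 9 rose and 1 fell. Meprin beta, mep1b, a metalloprotease of that border, had 9.34, 10.8 and 8.62 CPM at 250 ng/mL and 0.40, 1.27 and 1.18 CPM in controls (log2 fold change 3.32 ± 0.36, adjusted p = 8.9e-05). Its partner gene mep1a.2 had 23, 19.2 and 17.3 CPM against 4.8, 8.25 and 5.86 CPM (log2 fold change 1.66 ± 0.25, adjusted p = 0.000739). Each treated library was above each control for both. The aminopeptidase gene anpepa rose by 1.25. Intestinal alkaline phosphatase alp3, which is not among the 13 counted, had 10.29, 12.9 and 14.1 CPM against 1.94, 2.55 and 2.82 CPM (log2 fold change 2.35 ± 0.17, adjusted p = 7.67e-06). The protocadherin cdhr2, which links microvilli, rose by 1.37, while the microvillus core gene vil1 had 128, 125 and 132 CPM against 133, 125 and 97.5 CPM in controls (log2 fold change 0.11, adjusted p = 0.55).

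Of 15 absorptive transporter genes, 10 rose and 0 fell. The peptide transporter slc15a1b had 43.3, 61.1 and 52.2 CPM at 250 ng/mL and 19.2, 24.9 and 15.9 CPM in controls (log2 fold change 1.38 ± 0.15, adjusted p = 8.9e-05). The neutral amino acid transporter slc6a19b had 36.1, 48.5 and 36.2 CPM against 12.4, 15.2 and 12.3 CPM (log2 fold change 1.6 ± 0.17, adjusted p = 8.9e-05). Neither gene overlapped between the groups. The sodium glucose transporter slc5a1 rose by 1.36 (adjusted p = 0.000215). The chloride exchanger slc26a3.1 rose by 3.55 (adjusted p = 8.9e-05) from a low level, 1.74, 2.72 and 1.9 CPM against 0.114, 0.243 and 0.169 CPM.

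Lipid handling in the same cells was mixed. Of 17 genes of uptake and export, 8 rose and 4 fell, and the number that rose was 5 with 0 ng/mL replicate 3 or 250 ng/mL replicate 2 left out. The fatty acid binding genes fabp1b.1 and the ileal bile acid binding fabp6 rose by 0.74 and 1.62. In contrast, the apolipoprotein gene apoa1a had 2148, 2178 and 1492 CPM at 250 ng/mL and 3691, 3656 and 3076 CPM in controls (log2 fold change -0.84 ± 0.14, adjusted p = 0.00161). The structural apolipoprotein apoba had 505, 529.9 and 380.5 CPM against 859.7, 837 and 779 CPM (log2 fold change -0.81 ± 0.14, adjusted p = 0.00256). All 3 treated libraries were below all 3 controls for both, and 250 ng/mL replicate 3 was the lowest. The liver and yolk layer also make these particles, so the tissue that lost the transcripts cannot be read from whole larvae.

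Of 13 goblet cell, chitinase and mucosal genes of the gut, 5 rose and 1 fell. The chitinase gene chia.2 had 986, 1306 and 971 CPM at 250 ng/mL and 163, 362 and 143 CPM in controls (log2 fold change 2.29 ± 0.28, adjusted p = 0.000212), and chia.1 and chia.3 rose by 2.22 and 2.08. Its relative chia.6 rose by 0.92, while chia.4 and chia.5 had log2 fold changes of -0.34 and -0.31 and did not pass. These are neighbours in sequence as well as in name, and reads may be shared among them. Clca1, a secreted goblet cell protease in mammals, had 13.3, 13.6 and 14.3 CPM against 0.80, 3.16 and 1.13 CPM (log2 fold change 3.03 ± 0.35, adjusted p = 0.000111). Together with chia.1, chia.2, chia.3 and chia.6 it made up the 5 that rose. The mucin genes muc2.1 and muc5.1 and the goblet cell gene agr2 were not among them. Of 3 tested genes of the astacin metalloprotease family, 2 rose, with c6ast4 at 287, 492 and 358 CPM against 58.8, 122.75 and 69.6 CPM (log2 fold change 2.18 ± 0.30, adjusted p = 0.000466) and c6ast3 up by 2.67 (adjusted p = 1.15e-05). The other, npsn, is a neutrophil marker and had a log2 fold change of 0.11 (adjusted p = 0.679).

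The liver list was mixed. Of 42 plasma protein genes, 11 rose and 7 fell (median -0.04). The number that rose was 5 with 0 ng/mL replicate 1 left out, and the number that fell was 3 with 250 ng/mL replicate 3 left out and 4 with 0 ng/mL replicate 1 or 0 ng/mL replicate 2 left out. Of 19 carriers and other plasma proteins, 6 rose and 4 fell. Among those that rose, fabp10a, the liver fatty acid binding protein, had 285, 311 and 292 CPM at 250 ng/mL and 90.8, 142 and 99.4 CPM in controls (log2 fold change 1.42 ± 0.21, adjusted p = 0.00062). The vitamin D binding protein gc had 104, 117 and 98 CPM against 31.9, 50.1 and 34.9 CPM (log2 fold change 1.45 ± 0.15, adjusted p = 8.9e-05), and the thyroid hormone carrier ttr rose by 1.28 (adjusted p = 0.00152). Of 23 coagulation and acute phase genes, 5 rose and 3 fell. The number that rose was 0 with 0 ng/mL replicate 1 left out and 2 with 0 ng/mL replicate 2 or 250 ng/mL replicate 3 left out. Those that fell included the coagulation factor genes f2 (prothrombin) and f7, by 0.56 and 0.75 (adjusted p = 0.00509 and 0.00248). Among the carriers, the lipoprotein gene apoc1 fell by 0.57 (adjusted p = 0.00431). Transferrin, tfa, had 1468, 1772 and 1173 CPM against 1692, 2130.3 and 1756 CPM in controls (log2 fold change -0.34, adjusted p = 0.183). Of 3 tested yolk protein genes, vtg7 fell by 1.98 (adjusted p = 0.00557), vtg3 had a log2 fold change of 2.33 (adjusted p = 0.00262) from 0.718, 0.742 and 1.23 CPM against 0.171, 0.182 and 0.169 CPM, and vtg1 had -0.76 (adjusted p = 0.223).

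Cytochrome P450 enzymes oxidize drugs, steroids and fatty acids. Of 49 tested members, 21 rose and 4 fell (median 0.49). The family 3 gene cyp3a65, the larval counterpart of the main human drug oxidase, had 206, 266 and 278 CPM at 250 ng/mL and 38.7, 64.3 and 36.7 CPM in controls (log2 fold change 2.43 ± 0.18, adjusted p = 7.67e-06). Also in family 3, cyp3c3 had 45.2, 49.8 and 65.2 CPM against 12.9, 18.9 and 14.7 CPM (log2 fold change 1.78 ± 0.17, adjusted p = 4.11e-05). Both gave treated libraries well above every control. In family 2, 14 of 36 rose, among them cyp2k18 (1.53) and cyp2ad2 (1.5), and 4 fell. The number of these that rose was 9 with 0 ng/mL replicate 1 left out. Those that fell were cyp2aa3 (-1.96), cyp2aa8 (-1.7), cyp2aa9 (-1.78) and cyp2x7 (-0.82). The gene cyp2aa8 had 25.4, 13.7 and 3.69 CPM at 250 ng/mL, against 48.6, 53.2 and 37.1 CPM in controls, with the treated libraries spread over a wide range. The cyp2aa genes are a cluster of near copies, so the split of reads among them is uncertain. The family 1 gene cyp1a, a target of the aryl hydrocarbon receptor, rose by 0.52 (adjusted p = 0.00628), and the other 3 family 1 genes did not pass, at 0.18 to 0.29. In family 4, cyp4t8 and cyp4v8 rose by 1.31 and 0.79.

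Conjugation and efflux follow oxidation in the handling of drugs. Of 86 tested genes, 16 rose and 4 fell (median 0.18). The number that rose was 8 with 0 ng/mL replicate 3 left out and 10 with 0 ng/mL replicate 1 or 250 ng/mL replicate 2 left out. The drug efflux pump abcb4 had 48.5, 44.5 and 57.2 CPM at 250 ng/mL and 26.1, 25.9 and 21.5 CPM in controls (log2 fold change 1.03 ± 0.14, adjusted p = 0.000314). The bile salt pump abcb11b rose by 0.9, the bilirubin glucuronosyltransferase ugt1a1 by 1.03, and the sulfotransferases sult1st2 and sult1st3 by 1.8 and 1.55. The receptor that senses many drugs, nr1i2, had 20.8, 23.9 and 23.3 CPM against 20.4, 20.4 and 22.1 CPM in controls (log2 fold change 0.11, adjusted p = 0.672).

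Cortisol acts through the glucocorticoid receptor, nr3c1, and sets the response of many tissues to stress and fasting. Of 24 tested targets, 16 rose and 0 fell (median 0.64). Over the whole list of 38 genes 20 rose, a number that was 12 with 0 ng/mL replicate 1 or 250 ng/mL replicate 3 left out. The transcription factor klf9 had 89.7, 103 and 90.4 CPM at 250 ng/mL and 27.1, 45.2 and 35.6 CPM in controls (log2 fold change 1.4 ± 0.16, adjusted p = 0.000127). Tyrosine aminotransferase, tat, had 57.9, 61.5 and 67.8 CPM against 15.9, 29.4 and 22.3 CPM (log2 fold change 1.47 ± 0.19, adjusted p = 0.000269). The kinase sgk1, which controls sodium transport, had 169.5, 181 and 205 CPM against 93.6, 104 and 84.3 CPM (log2 fold change 0.98 ± 0.11, adjusted p = 0.000111). All treated libraries lay above all controls for these genes, and cebpd, an acute response factor, rose by 0.7 (adjusted p = 0.00126). The receptor itself had 80.2, 81 and 82.5 CPM against 80.8, 73.9 and 76.7 CPM in controls (log2 fold change 0.07, adjusted p = 0.614). The mineralocorticoid receptor nr3c2, which also binds cortisol, rose by 0.96 (adjusted p = 0.0112), which did not hold without 0 ng/mL replicate 1 (0.0568) or 250 ng/mL replicate 3 (0.0643). Of 12 genes of hormone production and breakdown 3 rose, and the number was 0 with 0 ng/mL replicate 1 or 0 ng/mL replicate 3 or 250 ng/mL replicate 2 or 250 ng/mL replicate 3 left out and 1 with 250 ng/mL replicate 1 left out. The enzymes that begin and end cortisol synthesis, cyp11a2 and cyp11c1, had log2 fold changes of 0.12 and -0.17 (adjusted p = 0.871 and 0.712).

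Skeletal muscle carries both turnover genes, which rise in wasting, and the genes of its contractile fibres. Of 21 genes of muscle atrophy, 10 rose and 0 fell (median 0.40). The ubiquitin ligase fbxo32 (atrogin-1) had 21.2, 54.5 and 33.1 CPM at 250 ng/mL and 4.8, 8.8 and 5.13 CPM in controls (log2 fold change 2.54 ± 0.34, adjusted p = 0.000372). The ligase adaptor klhl38b had 26.8, 40.6 and 35.7 CPM against 3.54, 8.92 and 3.77 CPM (log2 fold change 2.67 ± 0.29, adjusted p = 8.9e-05), and the MuRF1 gene trim63a had 95.5, 144 and 116 CPM against 48.2, 72.4 and 60.5 CPM (log2 fold change 0.98 ± 0.16, adjusted p = 0.00149). Replicate 2 was the highest library of both groups in all 3 genes, and the groups did not overlap. Pyruvate dehydrogenase kinase pdk2b, which turns muscle away from glucose, rose by 2.39 (adjusted p = 0.00066), and the Foxo factor foxo4 rose by 0.54 (adjusted p = 0.00492). Of 38 sarcomere genes, 1 rose and 1 fell (median -0.01). The light chain mylpfa had 8400.5, 8478 and 7571 CPM against 7646, 10351 and 8308 CPM in controls (log2 fold change -0.11, adjusted p = 0.622). The sarcomere gene that fell was tnnt3a, a fast troponin T, at 297, 297 and 240.0 CPM against 444, 489 and 459.8 CPM (log2 fold change -0.74 ± 0.11, adjusted p = 0.000604).

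The list of fatty acid oxidation and fasting was mixed, with 9 of 45 genes higher and 5 lower (median -0.05). The number that rose was 3 with 0 ng/mL replicate 1 left out. Of 11 regulators, 6 rose and 0 fell, with a count of 3 with 0 ng/mL replicate 1 or 250 ng/mL replicate 3 left out. Among them was lepb, a leptin gene, with the largest fold change of all genes that passed, at low levels of 1.68, 0.556 and 7.28 CPM at 250 ng/mL and 0.171, 0.182 and 0 CPM in controls (log2 fold change 4.71 ± 1.29, adjusted p = 0.0314). It did not pass with limma-voom (0.179) or without 0 ng/mL replicate 1 (0.0966), 0 ng/mL replicate 2 (0.0657), 0 ng/mL replicate 3 (0.0925) or 250 ng/mL replicate 3 (0.219). The uncoupling protein ucp1 had 181, 253 and 251 CPM at 250 ng/mL and 68.7, 123.35 and 75.2 CPM in controls (log2 fold change 1.36 ± 0.20, adjusted p = 0.000619). Its muscle relative ucp3 had 51.7, 53.8 and 67.3 CPM against 15.9, 32.3 and 16.2 CPM (log2 fold change 1.43 ± 0.25, adjusted p = 0.00248), and the fatty acid sensor pparaa rose by 0.6 (adjusted p = 0.00433). Of 26 genes of fatty acid oxidation itself, 1 rose and 3 fell. Of 8 gluconeogenesis genes, 2 rose and 2 fell. The number of these that rose was 0 with 0 ng/mL replicate 1 left out and 4 with 0 ng/mL replicate 2 left out. Of 15 growth factor and binding protein genes, 3 rose and 1 fell. The binding protein gene igfbp1b, induced by fasting in mammals, had 10.4, 12.1 and 11.2 CPM against 4.23, 5.64 and 4.39 CPM (log2 fold change 1.24 ± 0.24, adjusted p = 0.00425). The growth hormone receptor ghrb rose by 0.95 (adjusted p = 0.000488), and igfbp2a, also an insulin-like growth factor binding protein, fell by 0.58 (adjusted p = 0.00329).

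Amino acid breakdown feeds carbon to the liver in fasting, with 14 of 38 genes higher and 3 lower (median 0.24). The number that rose was 7 with 0 ng/mL replicate 1 left out, 8 with 250 ng/mL replicate 2 left out and 9 with 250 ng/mL replicate 3 left out. Arginase 2, arg2, had 71.3, 77.1 and 86.9 CPM at 250 ng/mL and 26, 41.6 and 25.1 CPM in controls (log2 fold change 1.35 ± 0.16, adjusted p = 0.000173). The tryptophan oxygenase tdo2b had 11.6, 17.3 and 17.7 CPM against 2.97, 5.46 and 1.8 CPM (log2 fold change 2.2 ± 0.27, adjusted p = 0.000214), and hpda, of tyrosine breakdown, rose by 1.1 (adjusted p = 0.000149). Proline oxidases prodha and prodhb rose by 0.73 and 0.64. D-amino acid oxidase, dao.1, went the other way, with 1.38, 1.42 and 0.168 CPM at 250 ng/mL and 10.1, 7.77 and 7.38 CPM in controls (log2 fold change -3.11 ± 0.34, adjusted p = 8.9e-05). The treated libraries were all below the controls, and replicate 3 was the lowest of them.

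One-carbon metabolism, which moves methyl and formyl groups between serine, folate and methionine, gave more falls than rises. Of 40 genes, 4 rose and 14 fell (median -0.24). The number that fell was 7 with 250 ng/mL replicate 3 left out, 8 with 0 ng/mL replicate 2 or 0 ng/mL replicate 3 left out and 9 with 250 ng/mL replicate 2 left out, and the number that rose was 2 with 0 ng/mL replicate 1 or 0 ng/mL replicate 3 left out. The mitochondrial formate gene mthfd1l had 37.2, 32.7 and 34.6 CPM at 250 ng/mL and 94.2, 99.6 and 79.6 CPM in controls (log2 fold change -1.39 ± 0.12, adjusted p = 1.41e-05). Its cytosolic relative mthfd1a had 24.1, 28.2 and 24.2 CPM against 43, 46.1 and 42 CPM (log2 fold change -0.78 ± 0.11, adjusted p = 0.000455). Betaine homocysteine methyltransferase, bhmt, which remakes methionine, had 634, 579 and 551 CPM against 1188, 1230.5 and 973 CPM (log2 fold change -0.94 ± 0.11, adjusted p = 0.000192). For each of the 3 the treated libraries were below all controls. The first enzyme of serine synthesis, phgdh, fell by 0.39 (adjusted p = 0.0211), which did not hold without 0 ng/mL replicate 2 (0.055), 0 ng/mL replicate 3 (0.0607), 250 ng/mL replicate 2 (0.0618) or 250 ng/mL replicate 3 (0.0844). Against the direction of the list, mat2ab, a methionine adenosyltransferase gene, rose by 1.16 (adjusted p = 0.000246) and cbsa, which starts cysteine synthesis, by 0.65 (adjusted p = 0.00176).

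In xanthophores, the yellow pigment cells, pteridines are built from GTP. Of 10 pteridine and purine enzymes, 1 rose and 5 fell, and the number that fell was 3 with 0 ng/mL replicate 1 or 250 ng/mL replicate 2 or 250 ng/mL replicate 3 left out. The GTP cyclohydrolase gch2, the first step, had 15.8, 15.1 and 7.56 CPM at 250 ng/mL and 73.1, 54 and 55.6 CPM in controls (log2 fold change -2.25 ± 0.21, adjusted p = 4.69e-05). The purine synthesis genes paics and atic had 91.6, 62.8 and 51.2 CPM against 131, 141 and 126 CPM (log2 fold change -0.96 ± 0.17, adjusted p = 0.00224) and 57.5, 51.8 and 41.5 CPM against 93.4, 79 and 85.9 CPM (log2 fold change -0.78 ± 0.11, adjusted p = 0.000552). Of 13 genes of xanthophore identity and carotenoid handling, 3 rose and 2 fell (median 0.14). Of the 13, 8 had log2 fold changes above 0, up to 0.90, and the 2 that fell were aox5 and slc2a11b. The xanthophore oxidase aox5 had 14.4, 16.2 and 10.9 CPM against 36.5, 29.5 and 31.2 CPM (log2 fold change -1.23 ± 0.17, adjusted p = 0.000427), and slc2a11b, needed for pigment cell differentiation in medaka, fell by 1.0 (adjusted p = 0.000649). Every treated library was below every control for gch2, paics, atic, aox5 and slc2a11b. Among 17 melanin genes, 4 fell and 0 rose. The melanin enzymes dct and tyrp1b fell by 0.87 and 0.61 and the melanosome protein pmela by 0.58 (adjusted p = 0.000996, 0.00307 and 0.00719).

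Transcripts of endoplasmic reticulum chaperones were lower. These chaperones fold secreted proteins and are raised when unfolded protein builds up. All 18 chaperone and isomerase genes tested fell, with a median log2 fold change of -0.61. The number that fell was 12 with 0 ng/mL replicate 1 or 250 ng/mL replicate 3 left out. BiP, hspa5, the main chaperone, had 236, 176 and 165 CPM at 250 ng/mL and 446, 281 and 331 CPM in controls (log2 fold change -0.87 ± 0.15, adjusted p = 0.0023). Grp94, hsp90b1, had 295, 235 and 209 CPM against 476, 348 and 403 CPM (log2 fold change -0.73 ± 0.13, adjusted p = 0.00241). The disulfide isomerase pdia6 had 42.4, 38.3 and 34.5 CPM against 63.5, 57.8 and 53.8 CPM (log2 fold change -0.6 ± 0.09, adjusted p = 0.00108). The groups did not overlap for these genes, and replicate 3 was the lowest treated library in each. The chaperone cofactor sdf2l1 fell by 0.65 (adjusted p = 0.00108). In contrast, of 11 sensors and degradation genes 1 fell. It was derl2, of the pathway that exports misfolded protein, at -0.47 (adjusted p = 0.0161), which did not hold without 0 ng/mL replicate 1 (0.0562) or 250 ng/mL replicate 3 (0.0686). The stress sensor atf6 had a log2 fold change of -0.09 (adjusted p = 0.686). The isomerase pdia2, made mainly by the pancreas, is counted with that tissue and went up by 0.75 (adjusted p = 0.0202), which did not hold without 0 ng/mL replicate 1 (0.0959), 0 ng/mL replicate 3 (0.0719) or 250 ng/mL replicate 2 (0.0761).

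Targets of Atf4, the factor that answers amino acid shortage, were higher for 6 of 19 genes and lower for 0. The glutathione-degrading gene chac1 had 408, 469 and 432 CPM at 250 ng/mL and 249, 323 and 266 CPM in controls (log2 fold change 0.64 ± 0.13, adjusted p = 0.00485), and the mTOR inhibitor ddit4 had 29.3, 34.1 and 37.7 CPM against 16.3, 18.1 and 17.3 CPM (log2 fold change 0.97 ± 0.18, adjusted p = 0.00391). The gene ddit4 is also counted among the glucocorticoid targets. In a further list of 33 heat shock and chaperonin genes, 0 rose and 7 fell (median -0.145). Among those that fell were the mitochondrial chaperonins hspd1 and hspe1, by 0.68 and 0.52 (adjusted p = 0.000455 and 0.0109). The collagen chaperones serpinh1a and serpinh1b, which are not mitochondrial, fell by 0.74 and 0.93 (adjusted p = 0.00108 and 0.00573). Of the 7 tested cct subunits of the cytosolic chaperonin 0 passed edgeR's test, at log2 fold changes from -0.23 (cct3) to -0.05 (cct2), and 1 had an unadjusted p under 0.05. Limma-voom called 0 and DESeq2 called 1, cct3 (-0.26, adjusted p = 0.0353), which edgeR also called without 750 ng/mL replicate 3 (adjusted p = 0.0448).

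**Figure D4:**
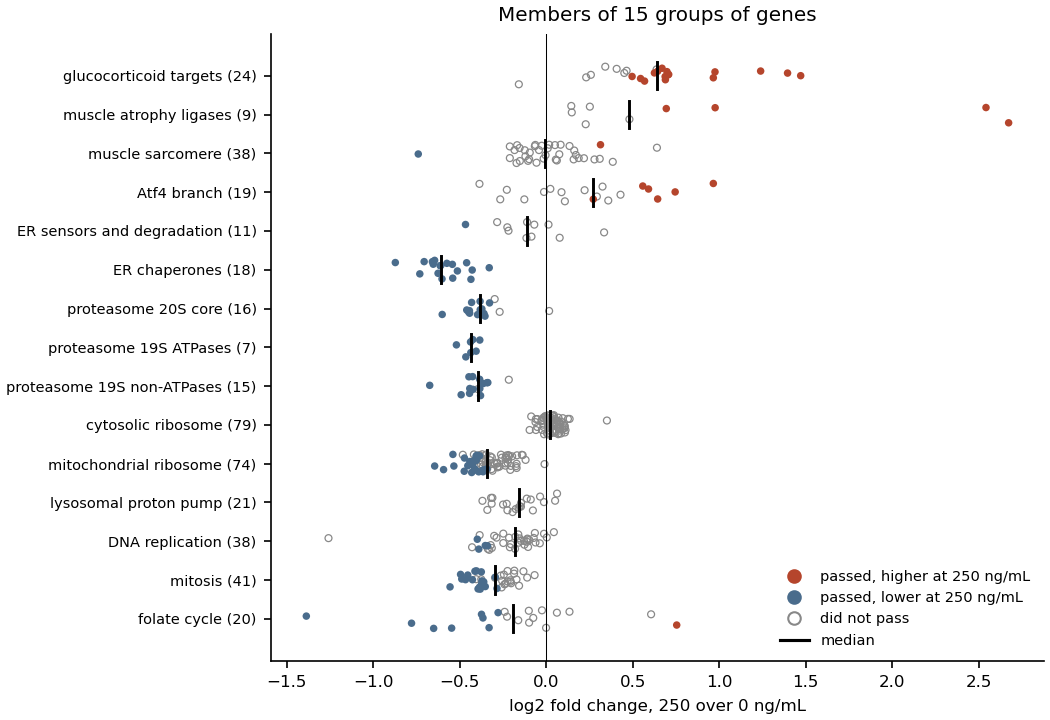
Log2 fold change of each tested member, 250 over 0 ng/mL, in 15 groups of genes (ER, endoplasmic reticulum), filled where the gene passed, with the median of the group as a black bar and the number of members in brackets. The 18 ER chaperones and the 19S ATPases lie wholly below 0, the cytosolic ribosome is centred on 0, and the mitochondrial ribosome is shifted to -0.34.

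Most genes of the core and cap of the proteasome, which degrades ubiquitin-tagged proteins, fell, and by small amounts. Of 50 genes, 35 fell and 2 rose (median -0.38). In the 20S core 13 of 16 fell, in the ring of 19S ATPases 7 of 7, and among the other 19S subunits 13 of 15. The core subunit psmb5 had 77.2, 74.6 and 62.7 CPM at 250 ng/mL and 122.95, 106 and 96.7 CPM in controls (log2 fold change -0.6 ± 0.10, adjusted p = 0.00193). The ATPase psmc1a had 68.7, 65.1 and 55.9 CPM against 90.8, 95.3 and 85.8 CPM (log2 fold change -0.52 ± 0.09, adjusted p = 0.00228), and psmd12, of the lid, had 86.4, 80.5 and 64.1 CPM against 102, 104 and 104 CPM (log2 fold change -0.43 ± 0.10, adjusted p = 0.0139). In all 3 replicate 3 was the lowest treated library, and the count of members that fell was 7 with 250 ng/mL replicate 3 left out, 15 with 0 ng/mL replicate 1 left out and 17 with 0 ng/mL replicate 2 left out. The 2 members that rose were psme4a, an activator, with 41.6, 59.6 and 68.3 CPM against 18.3, 25.9 and 20.2 CPM (log2 fold change 1.4 ± 0.17, adjusted p = 0.000203), and nfe2l1a, a factor whose mammalian counterpart drives proteasome genes, with 45.5, 58.9 and 56.9 CPM against 13.5, 27.2 and 16.6 CPM (log2 fold change 1.5 ± 0.19, adjusted p = 0.000263). Both passed whichever of the compared libraries or 750 ng/mL replicate 3 was left out.

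Ribosomal protein genes were read by compartment. Of 79 cytosolic ribosomal protein genes 0 rose and 0 fell by edgeR's test, with a median of 0.02. An unadjusted p under 0.05 was seen for 1 of these genes, and DESeq2 called 0 and limma-voom 0. Of 74 mitochondrial ones 0 rose and 23 fell, with a median of -0.34. The mitochondrial count was 2 with 250 ng/mL replicate 3 left out, 8 with 0 ng/mL replicate 1 left out, 9 with 0 ng/mL replicate 2 left out, 12 with 0 ng/mL replicate 3 left out and 43 with 750 ng/mL replicate 3 left out. The mitochondrial gene mrpl11 had 13.8, 14 and 12.8 CPM at 250 ng/mL and 22.1, 19.5 and 17.5 CPM in controls (log2 fold change -0.54 ± 0.11, adjusted p = 0.00598), and the cytosolic gene rpl6 had 2142, 2128 and 1903 CPM against 1856, 2104 and 1788 CPM (log2 fold change 0.1, adjusted p = 0.542). The nuclear-encoded subunits of oxidative phosphorylation passed for 4 genes upward and 3 downward of 88, below the share of all genes. Their median was -0.13, and 13 of the 88 had log2 fold changes above 0. The number that fell was 0 with 0 ng/mL replicate 1 or 0 ng/mL replicate 2 or 250 ng/mL replicate 3 left out, 1 with 0 ng/mL replicate 3 left out and 12 with 750 ng/mL replicate 3 left out. The subunit isoforms cox6a2, of heart and skeletal muscle in mammals, and cox4i2 rose by 1.09 and 0.64 (adjusted p = 0.000488 and 0.00352).

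The number of cell division genes called depended on single libraries. Of 79, 24 fell and 0 rose (median -0.25). The count was 6 with 0 ng/mL replicate 1 left out, 7 with 250 ng/mL replicate 3 left out, 10 with 0 ng/mL replicate 2 or 250 ng/mL replicate 2 left out, 11 with 0 ng/mL replicate 3 left out and 14 with 250 ng/mL replicate 1 left out. The mitotic kinase plk1 had 60.3, 61.7 and 58.4 CPM at 250 ng/mL and 87.4, 78.8 and 81 CPM in controls (log2 fold change -0.45 ± 0.08, adjusted p = 0.00193). Cyclin B1, ccnb1, had 37.8, 34.2 and 28.5 CPM against 51, 49.8 and 46.9 CPM (log2 fold change -0.56 ± 0.10, adjusted p = 0.00375). Treated libraries were all below controls for both. Each of these 2 genes passed whichever of the compared libraries or 750 ng/mL replicate 3 was left out. Of 38 p53 and cell death genes, 4 rose and 2 fell, and the number that rose was 7 with 0 ng/mL replicate 2 left out. Among those that rose were gadd45ab, a growth arrest gene, with 41.1, 45.9 and 44.4 CPM against 19.8, 22.6 and 23.8 CPM (log2 fold change 0.99 ± 0.14, adjusted p = 0.000488), and sesn1, a stress sensor upstream of mTOR, at a log2 fold change of 0.74 (adjusted p = 0.000343).

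Part of the sterol genes rose. Of 38 genes of cholesterol synthesis, uptake and control, 11 rose and 1 fell (median 0.28), with counts of 7 with 0 ng/mL replicate 3 or 250 ng/mL replicate 2 left out. The synthesis gene msmo1 had 63, 80 and 57.1 CPM at 250 ng/mL and 25, 23.4 and 24.5 CPM in controls (log2 fold change 1.45 ± 0.16, adjusted p = 8.9e-05). The low density lipoprotein receptor ldlra had 104, 118 and 111 CPM against 48.1, 54.2 and 57.8 CPM (log2 fold change 1.06 ± 0.09, adjusted p = 1.41e-05), and the sterol exporter abcg1 had 17.7, 20.1 and 23.4 CPM against 6.74, 7.04 and 10.198 CPM (log2 fold change 1.35 ± 0.15, adjusted p = 0.000111). All 3 separated the groups fully. Lanosterol demethylase, cyp51, rose by 0.89 (adjusted p = 0.00523), and insig1, which holds back the sterol-sensing machinery, by 0.82 (adjusted p = 0.00523). Of 13 fatty acid synthesis genes 3 rose and 0 fell, among them the desaturase fads2 and the elongase elovl2, by 0.88 and 0.85.

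Bepridil is a cationic amphiphilic drug, a class known to collect in lysosomes. Of 87 lysosome and autophagy genes, 11 rose and 3 fell (median 0.02). The number that fell was 5 with 0 ng/mL replicate 3 left out and 10 with 750 ng/mL replicate 3 left out. Cathepsin ctsl.1 had 93.7, 105 and 120.2 CPM at 250 ng/mL and 16.6, 31.4 and 19 CPM in controls (log2 fold change 2.26 ± 0.23, adjusted p = 7.17e-05). Cathepsin ctsbb, which is enriched in lysosome-rich enterocytes, had 21.5, 20 and 26.1 CPM against 6.28, 6.8 and 3.77 CPM (log2 fold change 2.01 ± 0.32, adjusted p = 0.00108). The groups were separate for both. The lysosomal phospholipase gene pla2g15, whose product breaks down stored phospholipid, fell, with 121, 150.4 and 122 CPM against 235, 232 and 231 CPM (log2 fold change -0.83 ± 0.10, adjusted p = 0.000247). The autophagy receptor gene calcoco1b rose by 2.5 and the initiating kinase ulk1a by 0.67 (adjusted p = 0.000246 and 0.00287). The cholesterol exporter npc1 had 81.3, 71.9 and 92.7 CPM against 109, 88 and 93.2 CPM in controls (log2 fold change -0.24, adjusted p = 0.198).

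Cytokine feedback and clock genes rose in part. Of 61 inflammation genes, 11 rose and 0 fell (median 0.43), with counts of 4 with 0 ng/mL replicate 1 or 250 ng/mL replicate 3 left out, 5 with 0 ng/mL replicate 3 left out and 7 with 0 ng/mL replicate 2 left out. The cytokine signal inhibitor socs1a had 13.8, 14 and 14.7 CPM at 250 ng/mL and 4.29, 4.37 and 5.01 CPM in controls (log2 fold change 1.63 ± 0.20, adjusted p = 0.000235), and its relatives cish and socs3a rose by 1.19 and 0.82 (adjusted p = 0.0005 and 0.00378). Of 14 neutrophil genes 4 rose and 0 fell (median 0.36), with counts of 1 with 0 ng/mL replicate 1 or 0 ng/mL replicate 3 or 250 ng/mL replicate 1 or 250 ng/mL replicate 3 left out. Among those that rose were cybb and ncf1, of the oxidase that makes superoxide, by 0.61 and 0.68, and cpa5, which is also on the pancreas list. The call of cybb did not hold without 0 ng/mL replicate 1 (0.123), 0 ng/mL replicate 3 (0.0546), 250 ng/mL replicate 1 (0.0986) or 250 ng/mL replicate 3 (0.105), and that of ncf1 did not hold without 0 ng/mL replicate 1 (0.172), 0 ng/mL replicate 2 (0.0568), 0 ng/mL replicate 3 (0.0706), 250 ng/mL replicate 1 (0.102) or 250 ng/mL replicate 3 (0.167). Neither cybb nor ncf1 passed without the 1295 ng/mL group (0.0525 and 0.05515). With only the compared groups cybb did not pass (0.0574), nor did ncf1 with RLE scaling (0.0504). Of 20 macrophage genes 0 rose and 1 fell: the gene that fell was apoc1, which is also a plasma protein gene. The neutrophil genes mpx and lyz had log2 fold changes of -0.03 and 0.19, and the macrophage gene mpeg1.1 0.19, none of which passed. Of 42 clock genes, 11 rose and 0 fell, with counts of 7 with 0 ng/mL replicate 1 or 250 ng/mL replicate 3 left out. The output repressor nfil3-6 had 65.7, 69.2 and 89.5 CPM against 12.3, 33.8 and 24.2 CPM (log2 fold change 1.68 ± 0.24, adjusted p = 0.000581), and bhlhe40 rose by 0.7 (adjusted p = 0.00174). The core repressor per2 had a log2 fold change of 0.29 (adjusted p = 0.152). Immediate early genes, which answer stimulation within minutes, rose for 8 of 37 and fell for 1, with counts of 3 with 250 ng/mL replicate 3 left out and 5 with 0 ng/mL replicate 3 left out for those that rose. The AP-1 gene fosl1a had 15.2, 21.4 and 30.6 CPM against 10.9, 8.98 and 6.42 CPM (log2 fold change 1.35 ± 0.25, adjusted p = 0.00307), while fosab and jun had log2 fold changes of 0.37 and -0.26 and did not pass.

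Part of the red cell genes fell. Of 32, 10 fell and 0 rose (median -0.39), and the number that fell was 4 with 250 ng/mL replicate 3 left out. The embryonic globin hbbe1.1 had 139, 126 and 155 CPM at 250 ng/mL and 292, 219 and 296 CPM in controls (log2 fold change -0.94 ± 0.16, adjusted p = 0.00159), and hbae3 had 511, 508 and 378 CPM against 741, 901 and 716 CPM (log2 fold change -0.76 ± 0.14, adjusted p = 0.00422). The heme synthesis gene cpox had 17.3, 14.6 and 12.8 CPM against 27.9, 31.1 and 23.6 CPM (log2 fold change -0.89 ± 0.13, adjusted p = 0.000586). The globins are near copies of one another, so the split of reads among them is uncertain. The erythroid heme gene alas2 had 23.9, 25.6 and 19.8 CPM against 29.4, 40.2 and 20.9 CPM in controls (log2 fold change -0.39, adjusted p = 0.191), and it passed without 0 ng/mL replicate 3 (-0.59, adjusted p = 0.0314).

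Part of the matrix genes fell. Of 56 collagen genes 8 fell and 0 rose, with counts of 2 with 0 ng/mL replicate 1 left out, 3 with 250 ng/mL replicate 1 or 250 ng/mL replicate 2 left out, 4 with 0 ng/mL replicate 2 left out, 5 with 0 ng/mL replicate 3 left out and 14 with 750 ng/mL replicate 3 left out. Among 20 cartilage genes 5 fell and 1 rose, with counts of 3 with 0 ng/mL replicate 1 or 250 ng/mL replicate 3 left out for those that fell. The link protein hapln1a had 148, 146 and 111 CPM at 250 ng/mL and 228, 224 and 235 CPM in controls (log2 fold change -0.76 ± 0.11, adjusted p = 0.000611). Other genes with a part in matrix were named for the size of their fall and not from a list. Groups that did not overlap were a condition of that choice. The prolyl hydroxylase p4ha1b had 13, 10.198 and 8.51 CPM against 31.1, 23.9 and 25.1 CPM (log2 fold change -1.34 ± 0.18, adjusted p = 0.000342), and the metalloprotease mmp11b had 11.9, 11.6 and 11 CPM against 25.1, 30.2 and 24.2 CPM (log2 fold change -1.2 ± 0.12, adjusted p = 7.18e-05). The notochord-associated matrix gene emilin3a had 6.04, 4.26 and 3.81 CPM against 18.3, 14 and 11.9 CPM (log2 fold change -1.65 ± 0.18, adjusted p = 0.000105). For the listed gene hapln1a no treated library reached the lowest control. The joint lubricant prg4b rose by 1.08 (adjusted p = 0.000421).

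In the eye, the result turned on a control library. Of 58 photoreceptor genes, 10 rose and 2 fell (median 0.47), and the number that rose was 5 with 0 ng/mL replicate 1 left out, 6 with 0 ng/mL replicate 2 or 250 ng/mL replicate 3 left out and 31 with 0 ng/mL replicate 3 left out. Ultraviolet opsin, opn1sw1, had 2260.1, 2596 and 2249 CPM at 250 ng/mL and 1331, 1185 and 1947 CPM in controls (log2 fold change 0.67, adjusted p = 0.0911), and control replicate 3 stood nearest to the treated libraries. It passed with the replicate number as a block (adjusted p = 0.0416), with only the compared groups (0.0305), without the 1295 ng/mL group (0.031) and without control replicate 3 (0.0451). One green opsin, opn1mw2, had 52.8, 56.3 and 52.3 CPM against 10.9, 19 and 15.7 CPM (log2 fold change 1.83 ± 0.19, adjusted p = 7.9e-05), with no overlap. Green and red opsin genes each have near copies. Of 56 lens genes 4 rose and 0 fell, near the share of all genes, and the number that rose was 1 with 0 ng/mL replicate 1 or 250 ng/mL replicate 3 left out.

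Calcium channels, the target of the drug, passed at a share near that of all genes. Of 46 tested subunit genes, 4 rose and 0 fell (median 0.31), and the number that rose was 0 with 0 ng/mL replicate 1 or 250 ng/mL replicate 3 left out, 1 with 0 ng/mL replicate 2 left out and 2 with 250 ng/mL replicate 1 left out. Among the 7 L-type pore genes, cacna1db passed, with 17.7, 21.6 and 28.4 CPM at 250 ng/mL and 13.2, 11.5 and 17.6 CPM in controls (log2 fold change 0.68 ± 0.20, adjusted p = 0.0453), which did not hold without 0 ng/mL replicate 1 (0.147), 0 ng/mL replicate 2 (0.134), 250 ng/mL replicate 2 (0.0842) or 250 ng/mL replicate 3 (0.227). The heart L-type gene cacna1c had 85.8, 86.5 and 100.03 CPM against 67.7, 75.2 and 76.2 CPM (log2 fold change 0.31 ± 0.15, adjusted p = 0.205), and the muscle gene cacna1sa had 32.5, 30.3 and 34.9 CPM against 38.7, 39.3 and 38 CPM (log2 fold change -0.25 ± 0.10, adjusted p = 0.133). Without 750 ng/mL replicate 3 cacna1sa passed (-0.3, adjusted p = 0.0411). With total counts as the only scaling cacna1db did not pass (adjusted p = 0.0723). Of the 4 T-type and 5 other pore genes 0 passed edgeR's test and 3 had an unadjusted p under 0.05, at log2 fold changes from 0.22 (cacna1g) to 0.54 (cacna1ab). DESeq2 and limma-voom called 1 each, the N-type gene cacna1ba. By edgeR's test cacna1ba also passed with only the compared groups, with a filter of at least 10 counts in every library, without the 1295 ng/mL group and without 250 ng/mL replicate 2, cacna1aa without the 1295 ng/mL group, and the T-type gene cacna1ha without 0 ng/mL replicate 3 or 250 ng/mL replicate 2.

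Of 41 tested heart genes, 2 rose and 5 fell (median 0.07). The number that fell was 0 with 250 ng/mL replicate 3 left out, 1 with 0 ng/mL replicate 1 or 250 ng/mL replicate 1 or 250 ng/mL replicate 2 left out and 3 with 0 ng/mL replicate 2 or 0 ng/mL replicate 3 left out, and the number that rose was 0 with 0 ng/mL replicate 2 or 250 ng/mL replicate 1 or 250 ng/mL replicate 3 left out and 1 with 0 ng/mL replicate 1 or 0 ng/mL replicate 3 or 250 ng/mL replicate 2 left out. The natriuretic peptides nppa and nppb, which heart muscle makes under load, had 11.6, 11.1 and 10.7 CPM and 1.56, 0.68 and 1.29 CPM at 250 ng/mL, against 9.26, 15.3 and 10.8 CPM and 0.743, 2.06 and 0.845 CPM in controls. Their log2 fold changes were -0.08 and -0.03 (adjusted p = 0.789 and 0.972), and the groups overlapped. Ventricular myosin, vmhc, had 108, 99.3 and 110.5 CPM against 101, 95.9 and 102 CPM (log2 fold change 0.09, adjusted p = 0.613). Of 13 ion handling genes, 0 rose and 2 fell, while 10 had log2 fold changes above 0 (median 0.28). The calcium pump atp2a2b fell by 0.57 (adjusted p = 0.0399) and the calcium store protein casq2 by 0.35 (adjusted p = 0.0345). The pump did not pass with limma-voom (0.0558), total counts only (0.0548), only the compared groups (0.0565) or without the 1295 ng/mL group (0.0529). With only the compared groups casq2 did not pass (0.0528). The result of atp2a2b did not hold without 0 ng/mL replicate 1 (0.197), 0 ng/mL replicate 3 (0.0701), 250 ng/mL replicate 1 (0.0695), 250 ng/mL replicate 2 (0.13) or 250 ng/mL replicate 3 (0.0947), and that of casq2 did not hold without 0 ng/mL replicate 2 (0.117), 250 ng/mL replicate 1 (0.0692), 250 ng/mL replicate 2 (0.0559) or 250 ng/mL replicate 3 (0.126).

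The next dose was not told apart from 250 ng/mL. Between 750 and 250 ng/mL, 0 genes passed edgeR's test (0% of those tested), 1681 genes had an unadjusted p under 0.05, and the smallest adjusted p was 0.619. DESeq2 called 5 genes and limma-voom 0, and without 750 ng/mL replicate 3 edgeR called 1. Levels at the rising doses are given for a pair of genes. Expression of cyp3a65 was 46.6 ± 15.4, 250.1 ± 38.3, 226 ± 25.2 and 31.8 ± 1.89 CPM at 0, 250, 750 and 1295 ng/mL (mean ± SD, n = 3 each). Expression of klf9 was 35.9 ± 9.07, 94.5 ± 7.71, 63.4 ± 5.03 and 44.5 ± 8.51 CPM in the same order. The fold change of klf9 at 750 over 250 ng/mL was -0.58 on the log2 scale (adjusted p = 0.619).

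**Figure D5:**
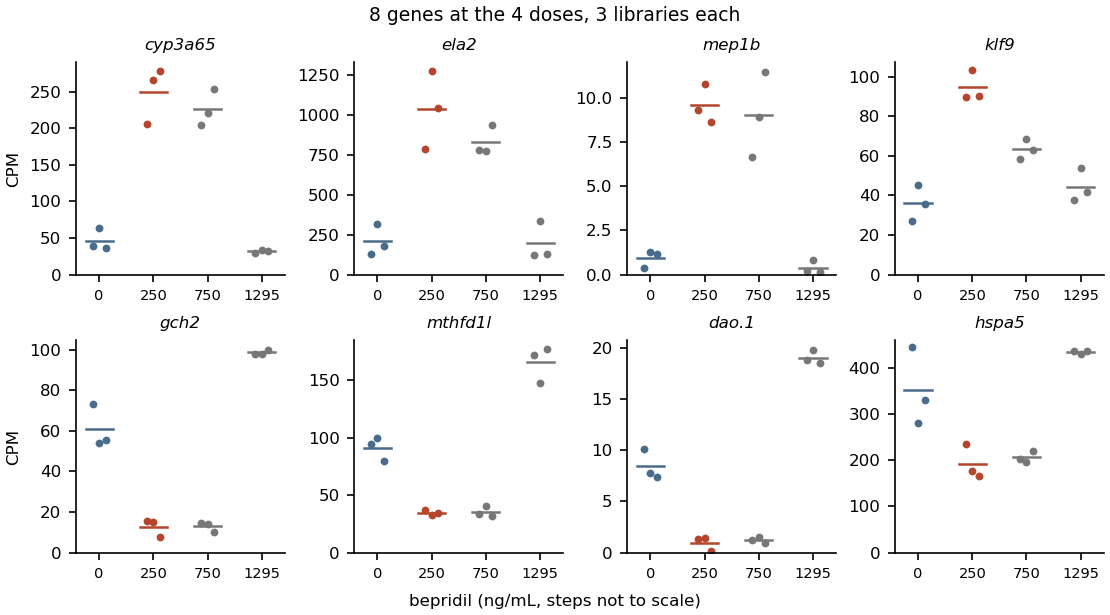
CPM of 8 genes in the 3 libraries at each of 0, 250, 750 and 1295 ng/mL (points, with the mean as a line, each vertical axis from 0). The 750 ng/mL means of cyp3a65, ela2, mep1b, gch2, mthfd1l, dao.1 and hspa5 lie near those at 250 ng/mL, and gch2, mthfd1l, dao.1 and hspa5 are highest at 1295 ng/mL.

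The top dose was far from 250 ng/mL. Between 1295 and 250 ng/mL, 12395 genes passed (57.4% of those tested), 5426 higher at 1295 ng/mL (25.1%) and 6969 lower (32.3%). With total counts as the only scaling, 22% of the calls were higher in place of 43.8%, and the median of all genes was -0.33 in place of -0.07. This comparison shares the 250 ng/mL libraries with the one above, and each is given with its own values. Of the exocrine pancreas list, 2 of 29 genes were higher at 1295 than at 250 ng/mL and 25 were lower (median -1.95). Of the intestine list these counts were 11 and 46 of 71 (median -1.13). For the proteasome they were 45 and 3 of 50 (median 0.74), and for endoplasmic reticulum folding 23 and 0 of 29 (median 0.62).

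By gene, mep1b was at 0.952 ± 0.481, 9.57 ± 1.09, 9.02 ± 2.38 and 0.388 ± 0.406 CPM at the rising doses, and had a log2 fold change of -4.63 at 1295 over 250 ng/mL (adjusted p = 1.19e-06). Against the controls, its log2 fold change was 3.24 at 750 ng/mL and -1.3 at 1295 ng/mL (adjusted p = 0.000254 and 0.0834). The elastase ela2 was at 208 ± 97.2, 1034 ± 243, 829 ± 92.6 and 195 ± 119 CPM, with log2 fold changes against the controls of 2.0 at 750 ng/mL and -0.09 at 1295 ng/mL (adjusted p = 0.0036 and 0.855). For gch2 the levels were 60.9 ± 10.6, 12.8 ± 4.57, 13 ± 2.55 and 98.6 ± 1.21 CPM. Its log2 fold change against the controls was -2.23 at 750 ng/mL and 0.69 at 1295 ng/mL (adjusted p = 8.65e-05 and 0.0108), so the sign differed between the doses. The formate gene mthfd1l had log2 fold changes against the controls of -1.36 and 0.86 at those doses, and dao.1 of -2.75 and 1.17 (adjusted p from 3.92e-05 to 0.00191 over these 4 values). Expression of sgk1 was 94.1 ± 10.1, 185 ± 17.9, 157 ± 17.3 and 174 ± 12.9 CPM, and its difference between 1295 and 250 ng/mL did not pass (log2 fold change -0.09, adjusted p = 0.508).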

How the data were processed

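Whole-larva messenger RNA was sequenced with a stranded kit, per the labels. The authors deposited 1 table of raw read counts per gene and 1 count file per library, which held the same values in 12 of 12 libraries. Trimmomatic, HISAT2, HTSeq and GRCz11 are named per the submitters' processing notes. Which versions, annotation and strand option were used was not given in the sources used here. Reads of overlapping or near-identical genes may be shared out in ways not known here. In the deposited counts, 10 gene names had turned into dates.

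Counts were tested with edgeR 4.0.16 in R 4.3.3: TMM factors, filterByExpr by dose, a quasi-likelihood fit of dose over all 12 libraries (8 residual degrees of freedom), and a prior count of 0.125 for fold changes. SE is the log2 fold change over the square root of F. RLE, upper-quartile and total-count scaling, 2 other filters, DESeq2 1.42.0, limma-voom (limma 3.58.1), fewer groups in the fit, a replicate block, a threshold of 0.01 and leaving out single libraries were the alternatives. Members and gene lists were chosen with earlier results of these data known, and list patterns that caught S6 kinases, assembly factors, crybg and gstcd were corrected after the counts had been read. Genes were named by rule: the 15 largest changes a direction among separated genes with curated symbols averaging 5 CPM, the 8 largest gains and losses in CPM, up to 4 members by p in each role of a list and every member of roles of 12 or fewer, and up to 5 genes a direction between doses. For the 15 largest changes a direction, separation of the groups was a condition of the choice and not a result. The genes alas2, chia.4, chia.5, chia.6, lyz, mpeg1.1, mpx, tfa and vmhc fall outside the rule and were chosen after their values were seen. A few single genes are not reported here. Counting error is small at these depths for abundant genes only. Among 1246 tested genes averaging under 1 CPM, 56 passed. Libraries below 1 CPM, as for lepb, slc26a3.1, vtg3, upp2 and dao.1, hold few reads, so those fold changes are imprecise. The 3 libraries a group also limit the precision.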

Additional observations from a re-analysis of the deposited data

How the results depend on the processing

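The 2269 genes at 250 against 0 ng/mL became 1069 to 3051 when a compared library or 750 ng/mL replicate 3 was left out. Other 750 and 1295 ng/mL libraries were not left out singly for this comparison. At an adjusted p under 0.01 the count was 824. The 0 genes between 750 and 250 ng/mL became 5 with DESeq2 and 0 to 1 when single libraries were left out. Over all tested genes, the deviations of same-numbered libraries were weakly correlated (0.003, 0.099 and 0.018), and not every library correlated best with its own number. Single groups of genes can differ from this. The summed CPM of the exocrine pancreas list was lowest in replicate 1 and highest in replicate 2 in both groups. With the replicate number as a block 1940 genes passed. Of 217 genes named, 175 passed, and 161 of these passed at 0.05 in every alternative that tested them. A gene that an alternative filtered out, or gave no adjusted p, was not counted as lost there. Most were named for a small p or a large change, and some that lost their calls are not described. That share therefore does not stand for all the genes that passed. Genes that did not pass changed sign in some settings. When single libraries were left out, the log2 fold change lay between -0.10 and 0.0029 for cct2, -0.0172 and 0.21 for ins, -0.18 and 0.0821 for mpx, -0.20 and 0.0295 for mylpfa, -0.23 and 0.15 for nppa, -0.29 and 0.56 for nppb, -0.0444 and 0.10 for ptf1a, and -0.0103 and 0.20 for vil1. That of ptf1a was -0.0101 with RLE scaling, -0.0103 with DESeq2, -0.0078 with only the compared groups and -0.0067 without the 1295 ng/mL group. That of nppb was 0.0477 with limma-voom and 0.0224 with the replicate block. The causes were not tested.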

Other observations

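Outside the tissues and pathways above, nucleoside salvage genes rose in part. Of 20 genes of purine and pyrimidine salvage and breakdown, 5 rose and 1 fell, and the number that rose was 8 with 0 ng/mL replicate 2 left out. Adenosine deaminase, ada, had 219, 277 and 212 CPM at 250 ng/mL and 93.4, 164 and 106 CPM in controls (log2 fold change 0.96 ± 0.17, adjusted p = 0.00256). The AMP deaminase ampd3b had 60.7, 73.7 and 66.9 CPM against 29.3, 40.5 and 32.8 CPM (log2 fold change 0.97 ± 0.13, adjusted p = 0.000382), and the uridine phosphorylase upp2 had 2.04, 3.09 and 3.25 CPM against 0.457, 0.364 and 0.282 CPM (log2 fold change 2.9 ± 0.37, adjusted p = 0.000263). Treated libraries were above controls for all 3. Of the nervous system, 0 of 25 transmitter and release genes passed (median 0.01). Of 17 glial genes 5 rose and 0 fell, while their median was -0.07. The number that rose was 3 with 0 ng/mL replicate 1 or 250 ng/mL replicate 1 or 250 ng/mL replicate 2 or 250 ng/mL replicate 3 left out. Among those that rose were the myelin genes mbpa, at 77.9, 79.9 and 69 CPM against 45.4, 54.2 and 52 CPM (log2 fold change 0.58 ± 0.09, adjusted p = 0.00131), and mpz, up by 0.68 (adjusted p = 0.00119). Of 17 hypothalamus and appetite genes, 4 rose and 0 fell, and the number was 2 with 0 ng/mL replicate 1 or 250 ng/mL replicate 1 left out. Appetite peptides pmchl and vip rose by 1.34 and 0.74 (adjusted p = 0.00445 and 0.00265).

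Of 22 ionocyte transport genes, 3 rose and 0 fell (median -0.09). The number that rose was 1 with 0 ng/mL replicate 1 left out and 5 with 0 ng/mL replicate 2 left out. The ionocyte sodium pump atp1a1a.4 had 460.4, 577 and 411 CPM at 250 ng/mL against 281, 347 and 248 CPM in controls (log2 fold change 0.73 ± 0.15, adjusted p = 0.00564). Of 31 zinc and metal genes 1 rose and 2 fell, near the share of all genes. The zinc transporter slc39a4 rose by 1.1 (adjusted p = 0.0105), which did not hold without 0 ng/mL replicate 1 (0.0566). Its relatives slc39a5 and slc39a7 fell by 1.82 and 0.47 (adjusted p = 0.00189 and 0.00344). Of 29 oxidative stress genes 2 rose and 1 fell, also near that share. The heme oxygenase hmox1a rose by 0.94 (adjusted p = 0.000709). The glycolysis regulator pfkfb3 rose by 0.92 (adjusted p = 0.00931) in a list of 25 hypoxia targets of which 5 rose (2 with 0 ng/mL replicate 1 or 250 ng/mL replicate 2 left out and 3 with 0 ng/mL replicate 2 or 250 ng/mL replicate 3 left out).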
